A study of Mus musculus with 4 samples.

Results

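The 9 genes described here, Akr1c18, Cyp2s1, Chpf, Htra1, Kbtbd11, Akap6, Rgs16, Pip5k1b and Cd5, were much brighter in cultured mouse osteoclasts than in macrophages and do not belong to the usual list of osteoclast genes. They were chosen by that difference, which had to be large in wild-type and in LysM-St18flox cells, so the difference itself is a description and carries no test. The arrays held 13 probes for them, out of 32977 probes named for 22903 genes. All 9 genes had a probe well above background on all 4 arrays, as did 13671 genes in the whole series, and 9 of the 13 probes reached that mark themselves.

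Total RNA was measured on one-colour microarrays, 4 in all and 1 per combination of cell type and genotype. Macrophages were bone marrow cells kept for 4 days in 25 ng/ml M-CSF, on which cells of this lineage depend for growth and survival. Osteoclasts were such macrophages given 25 ng/ml M-CSF and 50 ng/ml RANKL, the osteoclast-inducing cytokine, for 3 days more, so RANKL and time in culture cannot be told apart. Each cell type came from wild-type mice and from mice named LysM-St18flox, which by convention carry a loxP-flanked St18 gene, encoding a zinc finger transcription factor, and Cre recombinase from the lysozyme M locus of myeloid cells. The wild-type mice are not described as carrying Cre or loxP sites. Nothing in the sources used here gives the number or sex of the mice, or says whether marrow was pooled or whether the macrophages and osteoclasts of a genotype share an animal. With 1 array per group no difference has a replicate check, and no p-value is given. A 2-fold difference serves only as a criterion of size, and the errors printed are those of the scanner software for a spot on its own array, not the spread between cultures.

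RANKL binds the receptor RANK on macrophage precursors and, through NF-kappaB, AP-1 and the calcium-activated factor NFATc1, turns on genes for cell fusion, acid secretion and matrix breakdown. Cathepsin K (Ctsk), tartrate-resistant acid phosphatase (Acp5) and the fusion receptor Dcstamp are products of that program. The 9 genes have other textbook roles: steroid and xenobiotic metabolism, chondroitin synthesis, a secreted protease, cyclic AMP and G protein signalling, phosphoinositide synthesis and lymphocyte receptor signalling.

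The cultures carried the markers of their labels. Of 15 osteoclast markers, 12 were at least 2-fold higher in osteoclasts in wild-type cells and 14 in LysM-St18flox cells, with median log2 differences of 5.33 and 6.19. Of 11 macrophage markers, 6 and 8 were at least 2-fold lower, with medians of -2.30 and -3.58. Between 59.0% and 63.2% of spots were well above background, none was saturated, and the 75th percentile of the signal differed by 1.83-fold between the brightest and the dimmest array. By its brighter probe, St18 was lower in LysM-St18flox cells, 3.52-fold in macrophages and 1.35-fold in osteoclasts. Both values depend on scaling each array to its 75th percentile. That percentile was 1159 in LysM-St18flox and 635 in wild-type macrophages, the brightest and the dimmest array, and 1060 and 769 in osteoclasts. Where that probe lies relative to the loxP-flanked part is unknown here, and the second St18 probe was well above background only on the LysM-St18flox osteoclast array, where it was at least 1.22-fold higher than in wild-type osteoclasts. All 4 arrays shared 1 slide and 1 scan.

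The bases before the gene starts are shown because genes that are high in the same cells are often searched for common binding sites. RefSeq promoter windows on build GRCm38.p6 were matched for 7 of the 9 genes (not Kbtbd11 and Pip5k1b), and the 250 bases before the start were searched on both strands. The core of the NFAT site, TGGAAA, was in 1 of 7 windows, that of Akap6, against 18.6% of all 32851 windows of that length. The PU.1 site GAGGAA, named for the myeloid factor PU.1, was in 4 of 7, those of Akr1c18, Cd5, Htra1 and Rgs16, against 23.3% of all windows. An AP-1 site, TGANTCA, and the E-box CACGTG were in 0 of 7, against 6.75% and 6.02% of all. The windows of 8 osteoclast marker genes, 14 in all, held the NFAT core in 3 and the PU.1 site in 4. A match is a run of letters and not a bound site, and a window without one says only that these letters are not in it. The 3 windows below are those of the gene with the NFAT core (capitals, 126 bases before the start), of the gene with the largest wild-type difference (capitals, the PU.1 site on the other strand, 106 bases before the start) and of the lymphocyte receptor gene (capitals, the PU.1 site, 53 bases before the start). Each is written 5′ to 3′ on the gene's own strand.
Akap6, chr12:52699133-52699382, plus strand: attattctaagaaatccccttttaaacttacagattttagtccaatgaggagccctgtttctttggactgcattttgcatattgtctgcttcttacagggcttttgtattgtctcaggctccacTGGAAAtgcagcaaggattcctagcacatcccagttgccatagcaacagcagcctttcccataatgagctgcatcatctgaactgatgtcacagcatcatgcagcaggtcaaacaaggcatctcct
Akr1c18, chr13:4150647-4150896, minus strand: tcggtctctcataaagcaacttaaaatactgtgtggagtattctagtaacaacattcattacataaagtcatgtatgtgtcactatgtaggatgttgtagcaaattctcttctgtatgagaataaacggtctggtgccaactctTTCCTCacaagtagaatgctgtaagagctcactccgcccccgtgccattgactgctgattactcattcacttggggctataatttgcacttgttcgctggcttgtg
Cd5, chr19:10738975-10739224, minus strand: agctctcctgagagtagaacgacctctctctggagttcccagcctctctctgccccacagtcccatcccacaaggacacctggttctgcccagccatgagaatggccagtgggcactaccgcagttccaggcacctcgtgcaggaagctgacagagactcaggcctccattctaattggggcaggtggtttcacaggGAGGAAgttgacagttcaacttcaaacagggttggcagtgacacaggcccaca

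The metabolic and biosynthetic enzymes are given first. Akr1c18, the aldo-keto reductase that inactivates progesterone as 20-alpha-hydroxysteroid dehydrogenase, had a processed signal of 32.2 and 3358 in macrophages and osteoclasts of the wild type, and of 108 and 25602 in those of LysM-St18flox mice. Both macrophage arrays were dim and both osteoclast arrays bright, and the LysM-St18flox array was the higher of its pair in each cell type. After scaling each array to its 75th percentile, the log2 difference of osteoclasts over macrophages was 6.43 ± 0.25 in wild-type (86.0-fold) and 8.02 ± 0.21 in LysM-St18flox cells (259-fold). Its only probe was A_55_P2163098.

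Cyp2s1, a cytochrome P450 of tissues outside the liver and a target of the aryl hydrocarbon receptor, gave 129 and 12275 in wild-type macrophages and osteoclasts and 81.7 and 38214 in the LysM-St18flox pair. The order of the genotypes turned between cell types, since the LysM-St18flox array was the lower of the macrophages and the higher of the osteoclasts. The log2 differences were 6.29 ± 0.21 (78.4-fold) and 9.0 ± 0.22 (511-fold), the highest value of the 9 genes in LysM-St18flox cells. For Chpf, the chondroitin polymerizing factor that works with chondroitin synthases to extend the sugar chain, the signals were 38.8 and 2697 in wild-type and 52.9 and 5393 in LysM-St18flox cells. Its log2 differences, 5.84 ± 0.24 and 6.80 ± 0.24, equal 57.3-fold and 111-fold, and the macrophage arrays lay close to each other. Each gene had 1 probe, A_55_P1966749 and A_55_P2118268.

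Htra1, a secreted serine protease that cleaves matrix proteins, was the only one of the 9 genes whose difference was not larger in LysM-St18flox cells as scaled here. Its brighter probe, A_51_P225224, read 88.3 and 7144 in wild-type macrophages and osteoclasts and 106 and 5564 in the LysM-St18flox pair. The log2 differences were 6.06 ± 0.21 (66.8-fold) and 5.84 ± 0.22 (57.3-fold), which lie apart by less than their combined software error of 0.30. The second probe, A_66_P138355, was well above background in both osteoclast arrays, at 310.3 and 234, and in neither macrophage array, at 4.45 and 5.61. Against the lowest signal well above background it was at least 16.1-fold higher in wild-type osteoclasts and at least 10.4-fold higher in LysM-St18flox osteoclasts. Between genotypes it was lower by 0.87 (log2) in LysM-St18flox osteoclasts, beside 0.82 for the brighter probe. Htra1 is also a gene of connective tissue cells. Of 9 stromal cell markers, 6 were not well above background on any array, and 1, Dcn, was at least 2-fold higher in osteoclasts (1.26 and 1.65). Their summed level (log2 of the sum) was -2.23 and -1.59 in wild-type macrophages and osteoclasts and -2.18 and -1.79 in LysM-St18flox cells, and their part in the values of Htra1 was not tested.

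Among the adaptors and scaffolds, Kbtbd11, a BTB-kelch protein of the family that brings substrates to cullin 3 ubiquitin ligases, had the largest genotype difference in osteoclasts by its brighter probe. That probe, A_52_P570240, read 30.0 and 2054 in wild-type macrophages and osteoclasts and 241 and 25028 in LysM-St18flox cells. LysM-St18flox was the higher of the genotypes in both cell types, and the wild-type macrophage spot was within 2-fold of the array's detection floor, the lowest signal of any probe well above background. The log2 differences between cell types were 5.82 ± 0.27 (56.6-fold) and 6.83 ± 0.21 (113-fold). A second probe, A_55_P2075213, did not show the difference: it read 18.8, 16.2, 7.93 and 29.5 in the same order, and was well above background only in wild-type macrophages and LysM-St18flox osteoclasts. The fold it allows in LysM-St18flox cells is at least 1.32, and it gives none in wild-type cells. Between genotypes its macrophage signal was lower in LysM-St18flox cells, at least 1.40-fold, opposite to the brighter probe, and it gives no fold in osteoclasts. The values of Kbtbd11 thus rest on 1 of its 2 probes. The median over both gave log2 differences of 2.66 and 4.42, with spots not well above background taken at their readings.

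Akap6 encodes the muscle A-kinase anchoring protein, which holds protein kinase A, phosphodiesterase 4D and calcineurin at the nuclear envelope. The brightest of its 3 probes, A_51_P224362, read 122 and 5059 in wild-type macrophages and osteoclasts and 35.3 and 16034 in the LysM-St18flox pair. The log2 difference was 5.09 ± 0.21 in wild-type (34.1-fold) and 8.95 ± 0.31 in LysM-St18flox cells (496-fold), with the LysM-St18flox macrophage spot 1.44-fold above the floor. The probe A_55_P2350022 read 38.3, 1616, 11.7 and 5428, with only the LysM-St18flox macrophage spot not well above background, and gave 34.8-fold in wild-type and at least 242-fold in LysM-St18flox cells. The probe A_55_P2744760 was well above background in osteoclasts only, at 139 and 587, and gave at least 7.21-fold and 26.2-fold. All 3 probes were thus higher in osteoclasts in both genotypes.

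In G protein and lipid signalling, Rgs16, which speeds the return of Gi and Gq proteins to the inactive state, read 85.0 and 1500.5 in wild-type macrophages and osteoclasts and 32.7 and 4137 in LysM-St18flox cells. The log2 differences were 3.86 ± 0.22 (14.6-fold) and 7.11 ± 0.32 (138-fold), and the LysM-St18flox macrophage spot was 1.33-fold above the floor of its array. Pip5k1b, a kinase that makes phosphatidylinositol 4,5-bisphosphate, read 85.0 and 879 in wild-type and 74.5 and 4694 in LysM-St18flox cells. Its log2 differences were 3.09 ± 0.21 (8.53-fold), the smallest of the 9 in wild-type cells, and 6.11 ± 0.23 (68.9-fold). For both genes the macrophage array of LysM-St18flox cells was the dimmest of the 4 and their osteoclast array the brightest. The probes were A_55_P2807418 and A_51_P410260, the only ones of their genes.

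Cd5, a scavenger receptor cysteine-rich surface protein known as an inhibitory receptor of T cells and B-1 cells, read 63.8 and 1078 in wild-type macrophages and osteoclasts and 54.6 and 2993 in LysM-St18flox cells by its only probe, A_51_P167263. The log2 differences were 3.80 ± 0.22 (13.9-fold) and 5.91 ± 0.25 (60.0-fold). The lymphocyte markers that could be measured did not move with it. Of 12 T cell markers, 9 were measured in wild-type and 10 in LysM-St18flox cells. Of these, 0 were at least 2-fold higher in osteoclasts and 1 lower in either genotype, Cd28, with log2 differences of -1.98 and -3.41. Their median differences were -0.40 and -0.25. The summed level of all 12 (log2 of the sum) was 3.59 and 2.91 in wild-type macrophages and osteoclasts and 4.02 and 2.66 in LysM-St18flox cells. Cd3g and Cd8a were not well above background on any array. Of 7 B cell markers, 4 were measured in each genotype, with 0 higher and 1, Cd79b, lower. Summed levels of all 7 were 0.39, -0.96, 0.71 and -1.58 in the same order. Not well above background on any array were 3 of the 7, Cd79a and Blk among them. In RNA of whole cultures, fewer cells of a type and less RNA per cell cannot be told apart.

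**Figure D1:**
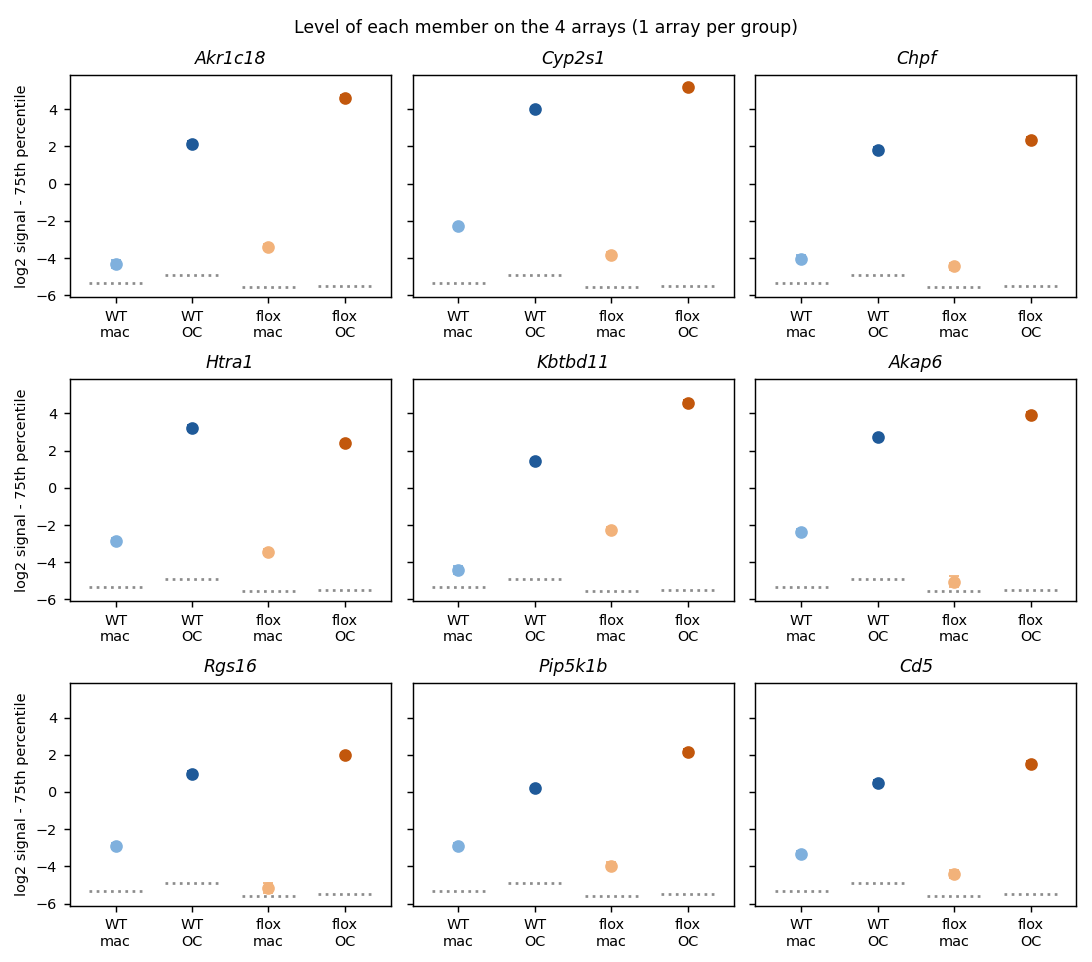
Level of each of the 9 genes (y axis, log2 signal minus the 75th percentile of its array) on the wild-type (WT) and LysM-St18flox (flox) macrophage (mac) and osteoclast (OC) arrays, 1 point per array with the scanner software's error as a bar, mostly smaller than the point. Dotted lines mark the lowest level well above background on each array; every macrophage point lies between that line and -2.26, and every osteoclast point above 0.

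Across the 9 genes, all were at least 2-fold higher in osteoclasts in both genotypes, as the choice of the genes requires, and nothing is read from that count. Of all genes measured, 5.7% of 14734 were at least 2-fold higher in wild-type osteoclasts and 7.32% lower, and 11% of 15575 were higher in LysM-St18flox osteoclasts and 12.2% lower. The median of the 9 was 5.82 (56.6-fold) in wild-type and 6.83 (113-fold) in LysM-St18flox cells, beside medians of 0.00 and -0.02 over all genes. Ranked by the smaller of their differences in both genotypes among the 13671 genes measured on all arrays, the genes stood at 3 (Akr1c18), 4 (Cyp2s1), 7 (Chpf), 8 (Htra1), 9 (Kbtbd11), 14 (Akap6), 41 (Rgs16), 44 (Cd5) and 67 (Pip5k1b). The choice did not take every gene of that size. At or above the value of Pip5k1b, 3.09, were 67 genes, 9 of them those described here and 7 of them osteoclast markers (Ctsk, Acp5, Dcstamp, Atp6v0d2, Ocstamp, Oscar and Src). Just inside that value were Stap2 (3.18), Gm13889 (3.18) and Strip2 (3.12), and just outside Prl2c5 (3.09), Myo1d (3.07) and Ppargc1b (3.06).

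**Figure D2:**
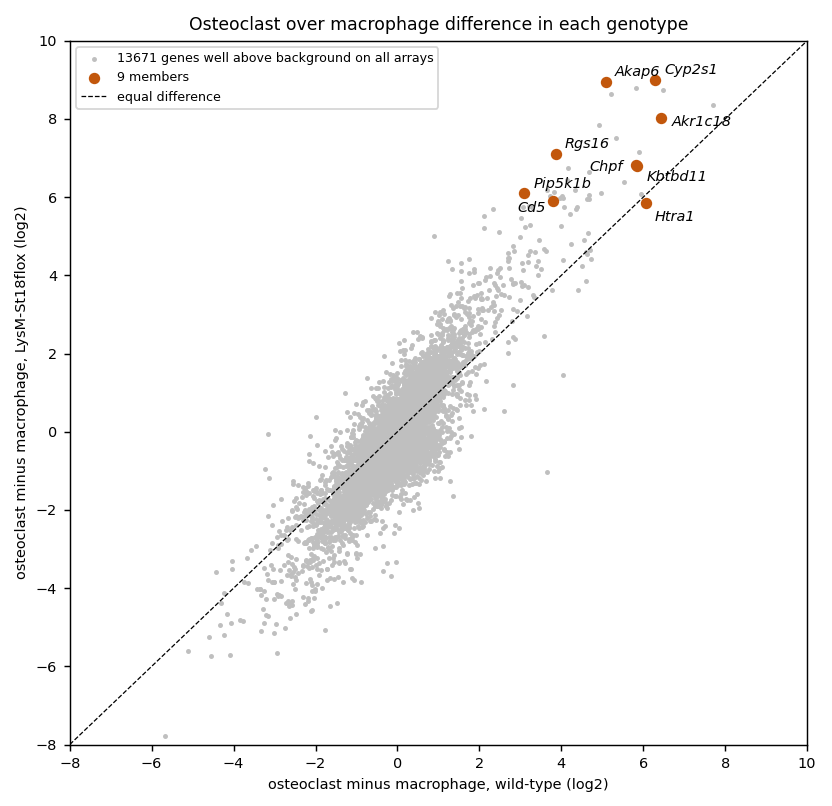
Osteoclast minus macrophage difference (log2) in wild-type cells (x axis) against LysM-St18flox cells (y axis) for the 13671 genes measured on all 4 arrays, 1 grey point per gene, with the 9 genes in orange and a dashed line of equal difference. Of the 9, 8 lie above the line and Htra1 just below it; Chpf and Kbtbd11 nearly coincide.

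Between genotypes, the 9 genes split in macrophages and went mostly one way in osteoclasts. These differences use the arrays on which the genes were chosen, so they are descriptions too. In macrophages, 1 of 9 was at least 2-fold higher in LysM-St18flox cells and 5 of 9 lower, against 3.3% and 3.01% of 15160 genes. Kbtbd11 was higher by 2.14 ± 0.27 (4.41-fold) by its brighter probe, against 0.01 by the median over its probes. That median takes in a LysM-St18flox macrophage spot of the second probe that was not well above background. Akap6 was lower, at -2.66 ± 0.31 (6.32-fold), as were Rgs16 at -2.25 ± 0.33 (4.75-fold) and Cyp2s1 at -1.53 ± 0.23 (2.89-fold). Cd5, at -1.09 ± 0.27, and Pip5k1b, at -1.06 ± 0.24, were just past 2-fold. Akr1c18 (0.88 ± 0.26), Htra1 (-0.60 ± 0.22) and Chpf (-0.42 ± 0.27) stayed under it, and the values of Htra1 and Chpf turned to 0.27 and 0.45 when arrays were not scaled. By the second brightest Akap6 probe, LysM-St18flox macrophages were at least 2.86-fold lower.

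The macrophage values are the least precise of those given. The 9 spots had 30.0 to 129 units of signal in wild-type and 32.7 to 241 in LysM-St18flox macrophages, between 2.09-fold and 7.33-fold over the local background of the spot before subtraction. Probes printed in many spots, with signals of 25 to 150, had a median SD between spots of 0.14 (log2) on the wild-type macrophage array. That rests on 6 probes, the highest at 0.26. On the LysM-St18flox macrophage array the median SD was 0.19, from 9 probes, the highest at 0.32. This is the spread within an array, not between cultures. Before scaling between arrays, 4 of the 9 signals were higher in LysM-St18flox macrophages and 5 lower. With normexp, a model-based background correction, 3 of the 9 genes passed 2-fold in macrophages in place of 6: Akap6 (-1.48), Rgs16 (-1.26) and Cyp2s1 (-1.16).

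In osteoclasts, 7 of 9 genes were at least 2-fold higher in LysM-St18flox cells and 0 lower, against 3.82% and 3.93% of 14615 genes. Kbtbd11 (3.14 ± 0.20, 8.84-fold) was number 8 from the highest of all genes in this comparison, followed among the 9 by Akr1c18 (2.47 ± 0.20, 5.53-fold) and Pip5k1b (1.95 ± 0.20, 3.88-fold). By the median over its probes Kbtbd11 came to 1.77, below both of these. That median takes in a wild-type osteoclast spot of the second probe that was not well above background. Akap6 was higher by 1.20, Cyp2s1 by 1.18, Cd5 by 1.01 and Rgs16 by 1.0, each ± 0.20, so the last pair sat at the criterion. The other Akap6 probes gave 1.29 and 1.62. Chpf was higher by 0.54 ± 0.20, and Htra1 alone was lower, at -0.82 ± 0.20. Of the 15 osteoclast markers, 10 were also at least 2-fold higher in LysM-St18flox osteoclasts and 0 lower, among them Oscar (2.31), Car2 (2.26), Mmp9 (2.08), Atp6v0d2 (1.77), Dcstamp (1.18) and Nfatc1 (1.02), while Ctsk differed by 0.30 and Acp5 by -0.29. Whether more osteoclasts had formed in that culture was not tested.

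Counts over all genes depended on how the arrays were put on one scale. Of the genes past 2-fold between genotypes in osteoclasts, 49.2% were higher in LysM-St18flox cells as scaled here, 76.1% when arrays were centred on their median, which raised the median difference of all genes by 0.24, and 62.2% after quantile normalization. In the osteoclast over macrophage difference of LysM-St18flox cells the share higher was 47.4%, and 59.2% with median centring, a shift of 0.17 in the median of all genes. Of the 9 genes, the 8 that were above 0 in osteoclasts stayed above 0 and Htra1 below 0 under each of the 8 alternatives run. The alternative with no filter on dim probes could not move these values.

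**Figure D3:**
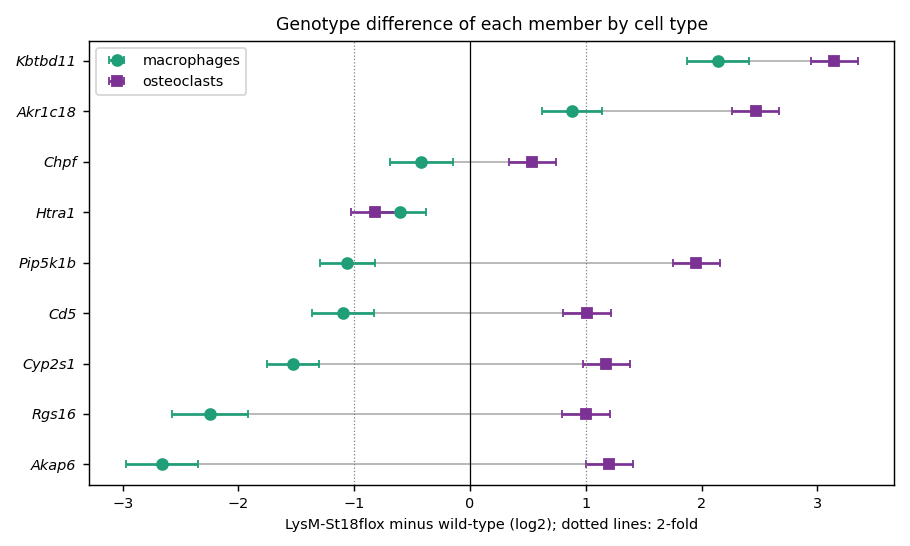
LysM-St18flox minus wild-type difference (x axis, log2) of each of the 9 genes in macrophages (circles) and osteoclasts (squares), 1 array per group, with the scanner software's error as a bar. For Chpf, Pip5k1b, Cd5, Cyp2s1, Rgs16 and Akap6 the macrophage point lies below 0 and the osteoclast point above it.

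The difference between the genotypes' osteoclast over macrophage differences follows from the same 4 values and shares its arrays with the choice of the genes, so a dim LysM-St18flox macrophage spot raises it and a dim wild-type macrophage spot lowers it. It was at least 2-fold in favour of LysM-St18flox cells for 7 of 9 genes, against 3.22% of 13671 genes, and 0 of 9 the other way, against 4.7%. The direction was not particular to the 9 genes. Of 12 osteoclast markers measured on all arrays, 12 were above 0, with a median of 0.89, and 5 were at least 2-fold in favour of LysM-St18flox cells. Akap6 had 3.86 ± 0.37 (14.5-fold), rank 2 of all genes. Rgs16 (3.25 ± 0.38) ranked 6; with normexp, Akap6 came to 2.76 and Rgs16 to 2.20. Pip5k1b (3.01 ± 0.31) ranked 10 and Cyp2s1 (2.71 ± 0.30) ranked 15. Cd5 (2.11 ± 0.34) ranked 47 and Akr1c18 (1.59 ± 0.33) ranked 127, the latter at 2.29 with normexp. Kbtbd11 (1.0 ± 0.34) and Chpf (0.96 ± 0.34) were near the criterion, at ranks 437 and 500, and normexp gave 2.26 for Kbtbd11. Htra1, at -0.22 ± 0.30, ranked 9942 and came to 0.01 with median centring. Of all genes past 2-fold in this measure, 40.7% were in favour of LysM-St18flox cells as scaled here and 69.1% with median centring.

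**Figure D4:**
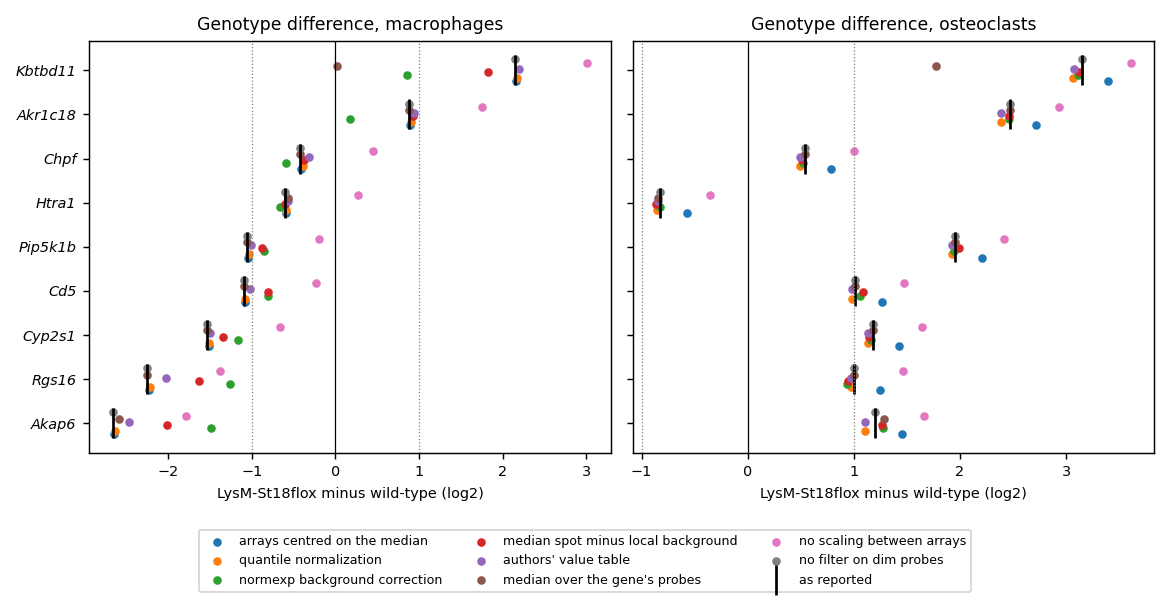
Genotype difference (x axes, log2) of each of the 9 genes in macrophages (left) and osteoclasts (right) as reported (black bars) and under each of 8 alternatives (coloured points), with dotted lines at 2-fold. In osteoclasts each gene keeps its side of 0 under all 8; in macrophages the values for Kbtbd11 run from 0.01 to 3.01.

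The genes whose pattern was most like each of the 9 were found by the Euclidean distance between the 4 log2 levels, each gene centred on its own mean, among the 13671 genes measured on all arrays; with 4 arrays this likeness is a description. Cyp2s1 lay nearest to Dcstamp (0.39), the sphingosine-1-phosphate exporter Spns2 (0.59) and the actin-severing protein Scin (0.81), and Akap6 to Scin (0.57), Dcstamp (0.67) and Cyp2s1 (1.01). Htra1 lay nearest to Acp5 (0.40), Chpf (1.04) and Dmkn (1.04), and Chpf to Ocstamp (0.62), Acp5 (0.66) and P2rx5 (0.86). Cd5 was closest to Rhou (0.23), Slc9b2 (0.29) and Cyb561 (0.46), and Pip5k1b to Slc18a1 (0.51), Rhou (0.53) and Myo1d (0.57). Rgs16 was closest to the serotonin transporter Slc6a4 (0.56), the receptor Met (0.70) and Zfp462 (0.80). The remaining pair had larger distances: Akr1c18 had Plxna4 at 1.05, Kbtbd11 at 1.35 and Atp6v0d2 at 1.36, and Kbtbd11 had Atp6v0d2 at 1.35, Akr1c18 at 1.35 and Oscar at 1.70.

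Each gene was also set beside the relatives and pathway partners listed for it, from lists drawn up by family and pathway. Among 27 other aldo-keto reductases and steroid-converting enzymes with a probe, 1 of 20 measured was at least 2-fold higher in wild-type osteoclasts and 1 lower, with a median of -0.19, and 2 of 23 higher and 1 lower in LysM-St18flox cells, with a median of -0.05. Srd5a1, a steroid 5-alpha-reductase that also acts on progesterone, was higher by 1.75 and 2.94. The close relatives Akr1c12 (0.13 and 0.54) and Akr1c13 (0.03 and 0.30) stayed under 2-fold, Akr1cl was lower (-1.55 and -2.24), and Akr1c6, Akr1c19, Akr1c21 and the progesterone receptor gene Pgr were not well above background on any array.

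Of 32 genes for cytochromes P450, Ahr targets and retinoid handling listed with Cyp2s1, 6 of 23 were at least 2-fold higher and 4 lower in wild-type osteoclasts (median 0.11), and 1 of 26 higher and 6 lower in LysM-St18flox osteoclasts (median -0.36). Cyp1b1, another P450 that Ahr induces, was at least 7.76-fold and 7.21-fold higher, not being well above background in either macrophage array. Ahr itself was higher by 1.83 and 0.52, the latter under 2-fold. Of the other Ahr targets listed, Ahrr differed by 1.22 and 0.01, Tiparp by 0.67 and 0.87 and Nqo1 by 0.30 and -0.22. Cyp1a1 and Cyp1a2 were not well above background on any array. Lower in both genotypes were the leukotriene hydroxylase Cyp4f18 (-1.72 and -2.07), the retinoid receptor Rxra (-1.54 and -2.12) and the retinal reductase Dhrs3 (-1.76 and -2.48).

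Of 24 chondroitin sulfate genes listed with Chpf, 2 of 21 were at least 2-fold higher and 3 lower in wild-type cells (median -0.19), and 1 of 22 higher and 5 lower in LysM-St18flox cells (median -0.16). Chst11, which adds sulfate to the chondroitin chain, was higher by 1.87 and 4.15. The partner synthase Chsy1 (0.37 and 0.25) and the paralog Chpf2 (-0.52 and -0.93) stayed under 2-fold, and Dse (-1.50 and -2.36), Chst3 (-2.42 and -1.37) and Xylt2 (-1.37 and -1.73) were lower. The paralogs of Htra1 went different ways: Htra2 differed by 0.68 and 1.01, Htra3 by -2.16 and -1.98, and Htra4 was not well above background on any array.

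Of 29 BTB-kelch genes and cullin 3 partners listed with Kbtbd11, 1 of 26 was at least 2-fold higher in wild-type cells and 0 lower (median 0.00), and 3 of 26 higher and 2 lower in LysM-St18flox cells (median -0.11); Klhl12, the adaptor for a COPII coat subunit, was higher by 1.72 and 3.34 and Cul3 differed by 0.16 and 0.55. Of 32 genes listed with Akap6, 2 of 28 were higher and 5 lower in wild-type (median -0.09), and 3 of 28 higher and 4 lower in LysM-St18flox cells (median -0.15). The anchoring protein gene Pakap, listed under its older symbol Akap2, was higher by 1.92 and 2.25. The kinase subunit gene Prkacb (-1.14 and -1.43) and the muscle factors Mef2a (-1.42 and -1.40) and Mef2c (-2.05 and -2.87) were lower, and the muscle calcium channel gene Ryr2 was not well above background on any array.

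Among the other regulators of G protein signalling, 0 of 12 were at least 2-fold higher and 4 lower in wild-type cells (median -0.42), and 0 of 11 higher and 4 lower in LysM-St18flox cells (median -0.62), with Rgs1 (-1.21 and -1.34), Rgs2 (-1.02 and -1.21) and Rgs18 (-1.47 and -2.69) lower in both. Of 31 phosphoinositide genes listed with Pip5k1b, 1 of 30 was higher and 3 lower in wild-type (median -0.04), and 5 of 30 higher and 5 lower in LysM-St18flox cells (median -0.16). The sister kinases Pip5k1a (0.21 and 0.32) and Pip5k1c (0.93 and 1.02) differed less than Pip5k1b. The phospholipase Plcb4 was higher (1.94 and 3.48), while Plcd1 (-2.02 and -2.70), Pikfyve (-1.15 and -1.51) and Pik3cg (-1.13 and -1.80) were lower.

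Of 14 other scavenger receptor cysteine-rich genes listed with Cd5, 1 of 10 was at least 2-fold higher and 5 lower in both genotypes, with medians of -1.13 and -1.27. The 1 higher was Ssc5d (1.60 and 1.74). The macrophage receptors Marco (-3.78 and -4.84) and Cd163, at least 15.3-fold and 29.4-fold lower, the secreted Cd5l (-3.06 and -3.84) and the lysyl oxidase Loxl3 (-1.64 and -1.89) were lower in both genotypes. Cd6, the T cell receptor most like Cd5, differed by -0.13 and -0.23.

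**Figure D5:**
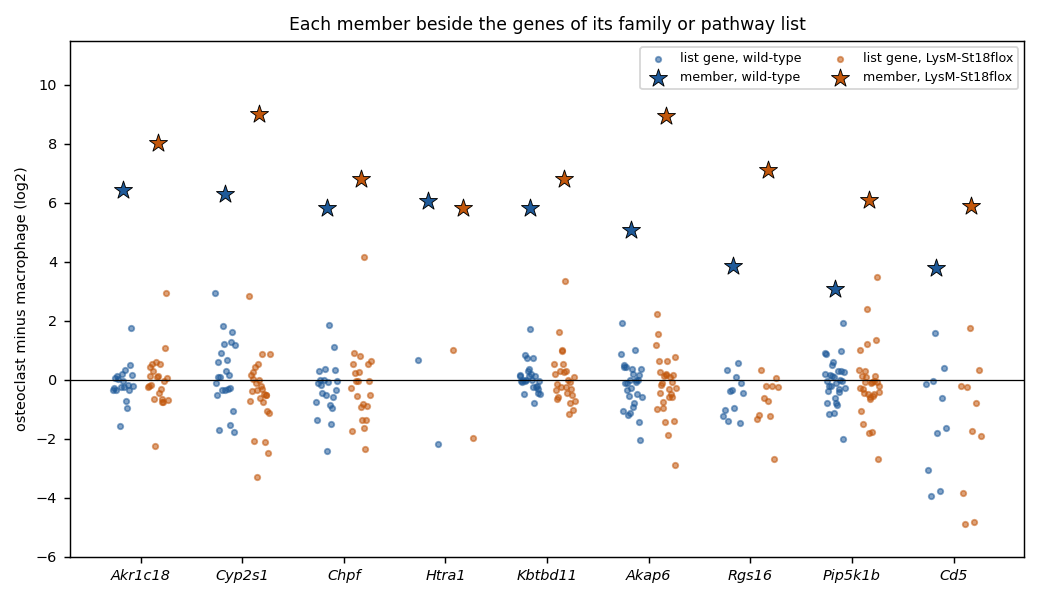
Osteoclast minus macrophage difference (y axis, log2) of each of the 9 genes (stars) beside the measured genes of its family or pathway list (points, spread sideways only to be visible), in wild-type (blue) and LysM-St18flox cells (orange). Each star lies above every point of its list in the same genotype; the 9 genes were chosen for that difference.

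The neighbours on the chromosome were read for the same arrays, taking the 3 nearest genes with a named probe on either side of each gene. Of 54 neighbours, 30 were measured in wild-type and 36 in LysM-St18flox cells, and 3 and 7 were at least 2-fold higher in osteoclasts and 6 and 5 lower. Of all genes measured, 5.7% and 11% were higher and 7.32% and 12.2% lower. Among the neighbours higher in both genotypes were Tmem198 beside Chpf (log2 bounds of 2.95 and 3.53) and Tacc2 near Htra1 (1.26 and 1.97). Near Rgs16, Npl (-1.82 and -2.01) was lower, as were the receptor tyrosine kinase gene Axl near Cyp2s1 (-2.06 and -2.40), Slc15a3 near Cd5 (-1.86 and -2.18) and the pseudogene Marcksl1-ps4 near Akr1c18 (-2.71 and -2.76). No measured neighbour of Kbtbd11 or Akap6 passed 2-fold in either genotype.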

How the data were processed

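RNA of 4 cultures, 1 per group, was hybridised to one-colour Agilent arrays; the submitters' processing notes name Agilent Feature Extraction, version 11.0.1.1. Each deposited scanner file holds, by its header, every spot's intensity after background subtraction (the processed signal), with the software's error and flags. A second deposited file holds the authors' log2 levels, with a median of 9.39 in each column; nothing in the sources used here says how they were made. Here the processed intensity was averaged over the spots of a probe, leaving out control and outlier spots, taken as log2 and set relative to the 75th percentile of its array. Probes were named through RefSeq accessions and a table of assembly GRCm38.p6; the file headers name an older build, so no probe coordinates are given. The probe with the highest mean stood for a gene. Where only 1 array of a pair was well above background, the fold is a bound against the floor of the other, dim array (the lowest signal of a probe well above background), or against the dim signal where higher, and a bound that turned sign was dropped. Errors of differences combine the software's errors in quadrature.

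The 9 genes and all lists were chosen with earlier results of these data known. Genes named were the 9 with every probe, up to 4 genes of each list past 2-fold in both genotypes, near relatives and markers, the 3 most alike patterns and the 3 nearest genes on each side; the other list genes were named after their values were seen. Normexp, with an offset of 50 in limma 3.58.1, was run on the median spot signals and median local backgrounds. Alternatives also covered median centring, quantile normalization, local background, the authors' table, the median over probes, no filter and, chosen after seeing the data, no scaling. R 4.3.3 and Python 3.11.15 were used.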

Additional observations from a re-analysis of the deposited data

Results flagged for a closer look

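For 6 of the 9 genes, the LysM-St18flox array was lower than the wild-type array in macrophages and higher in osteoclasts by at least 0.3 on the log2 scale. Each cell type had 1 array per genotype, so that this difference between cell types was not tested. The share of all genes with this pattern was not counted, so whether 6 of 9 is unusual is unknown. The 9 genes were also chosen by their osteoclast over macrophage difference on the same arrays. Akap6 went from -2.66 in macrophages to 1.20 in osteoclasts, Rgs16 from -2.25 to 1.0 and Cyp2s1 from -1.53 to 1.18. Cd5 went from -1.09 to 1.01 and Pip5k1b from -1.06 to 1.95. Chpf went from -0.42 to 0.54. Without scaling between arrays, the macrophage value of Chpf turned to 0.45, and those of Cd5 (-0.23) and Pip5k1b (-0.19) came under the 0.3 criterion, which leaves Akap6, Rgs16 and Cyp2s1. The macrophage spots of these genes were dim, at no more than 8.14-fold above the lowest signal well above background on their array, and the part of that in the pattern was not tested.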

How the results depend on the processing

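Of the 8 alternatives run, 7 were planned and 1 (no scaling between arrays) was chosen after seeing the data. All 9 genes stayed at least 2-fold higher in osteoclasts in both genotypes under each of them. The alternative with no filter could only repeat the main values, since each gene's chosen probe was well above background on all 4 arrays. The median over probes could only repeat those of genes with 1 probe. Such repeats are included in the counts that follow. Of 360 alternative values of single genes, 339 kept their side of 2-fold, 18 fell under 2-fold and 3 rose past it. Among those that stayed under 2-fold, the macrophage values of Chpf and Htra1 changed sign without scaling. The difference between the genotypes' responses of Htra1 changed sign with median centring. The number of genes past 2-fold between genotypes in macrophages was 6, with a range of 3 to 6. It was 3 with normexp, 4 with local background, 4 without scaling and 5 with the median over probes. In osteoclasts it was 7, with a range of 5 to 7, and for the difference between the genotypes' responses 7, with a range of 6 to 8. In macrophages, Kbtbd11 fell from 2.14 to 0.85 with normexp and to 0.01 with the median over its probes. Without scaling, the macrophage values of Cyp2s1 came to -0.66, Pip5k1b to -0.19 and Cd5 to -0.23, while Akr1c18 rose to 1.75. With local background, those of Pip5k1b came to -0.88 and Cd5 to -0.81, and with normexp to -0.85 and -0.81. In osteoclasts, Rgs16 came to between 0.94 and 0.97 under 4 alternatives and Cd5 to 0.98 and 0.99 under 2. Normexp lowered the wild-type difference of Akr1c18 from 6.43 to 5.0 and of Chpf from 5.84 to 4.54, and the LysM-St18flox difference of Rgs16 from 7.11 to 5.37. No paired analysis was possible because each group has 1 array. Signal over background limits the macrophage values: Kbtbd11 in wild-type and Akap6 and Rgs16 in LysM-St18flox macrophages were within 2-fold of the lowest signal well above background, and those folds move with the background correction.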
